A study of Mus musculus with 16 samples.

Results

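The BEACH domain family was followed through RNA immunoprecipitation (RIP) of the transcription factor Sox2 from mouse embryonic stem cells (mESC). Members were the rows of the count table whose gene identifier maps by GENCODE to Nbeal2, Nbeal1, Nbea, Lrba, Wdfy3, Wdfy4, Lyst, Nsmaf or Wdr81, which gave 9 of 53379 genes. All 9 passed the filter on low counts. Nbeal2 was included because the study named it for its enrichment in these libraries, so its enrichment is described here and given no p-value. The question was how Nbeal2 stands among its relatives after each of the crosslinkers used.

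The BEACH (Beige and Chediak-Higashi) domain is a conserved fold of cytoplasmic proteins, most of them very large, and usually lies between a pleckstrin-homology-like domain and a row of WD40 repeats. The proteins act as scaffolds in vesicle traffic, lysosome-related organelles and autophagy. Nbeal2 is needed for the alpha granules of platelets, and its loss in humans causes gray platelet syndrome. The data concern the RNAs of the members, not the proteins.

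All cells were male mESC kept on gelatin-coated plates with 1000 U/mL LIF, 1 uM PD0325901 and 3 uM CHIR99021, without any genetic change named in the labels. They were crosslinked either with formaldehyde (fRIP), which also joins RNA to proteins held near it, or with UV light (UV-RIP), which joins protein to RNA in direct contact. RNA was taken from the Sox2 IP and from the input, the lysate before the antibody was added, in 4 plates for each crosslinker, giving 16 libraries in 4 groups. No pull-down with another antibody was analysed here. Crosslinker and plates cannot be told apart, because no plate received both.

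The 9 members share a coding core, and 4 versions of its most conserved stretch are shown to let the relatives be compared at the level of bases. Each line holds 40 codons of the BEACH domain in GRCm38, and capitals mark the 14 codons at which all 9 members encode the same residue. In each of these 4 genes the stretch crosses an exon junction, so the coordinates take in an intron.
Nbeal2, chr9:110628200-110628408, minus strand, exons 42 and 43 of 54: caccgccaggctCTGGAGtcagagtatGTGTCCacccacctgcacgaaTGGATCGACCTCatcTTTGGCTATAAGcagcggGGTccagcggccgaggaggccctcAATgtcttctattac
Nbeal1, chr1:60290010-60291938, plus strand, exons 43 and 44 of 55: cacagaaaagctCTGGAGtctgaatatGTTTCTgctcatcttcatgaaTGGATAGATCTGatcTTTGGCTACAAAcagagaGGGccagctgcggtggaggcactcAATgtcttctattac
Wdfy3, chr5:101855491-101855813, minus strand, exons 54 and 55 of 65: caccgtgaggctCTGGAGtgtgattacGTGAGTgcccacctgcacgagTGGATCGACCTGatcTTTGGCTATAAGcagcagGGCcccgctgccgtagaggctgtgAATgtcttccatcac
Nbea, chr3:55665631-55680906, minus strand, exons 48 and 49 of 58: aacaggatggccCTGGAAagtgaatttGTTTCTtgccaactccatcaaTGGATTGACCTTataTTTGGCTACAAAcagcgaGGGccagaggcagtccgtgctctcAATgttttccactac
Nbeal1 had the same residue as Nbeal2 at 37 of 40 codons and the same base at 95 of 120 positions. Wdfy3 had fewer residues in common with Nbeal2, 31 of 40, yet slightly more bases, 97 of 120. GC content of the stretch was 57.5% in both Nbeal2 and Wdfy3, 45% in Nbeal1 and 46.7% in Nbea. The third base of the codon was G or C in 75% of the Nbeal2 codons and in 42.5% of the Nbeal1 codons. Nbeal1 was thus nearer to Nbeal2 than Wdfy3 was in residues, but not in base composition. Only reads that mapped to 1 place were counted, so reads that fit 2 members equally were dropped.

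Total depth ran from 17728081 to 21211537 UMIs (unique molecular identifiers, each counting an RNA fragment once) in the fRIP IP, from 13627606 to 15381686 in the fRIP input, from 14218784 to 17281596 in the UV-RIP IP and from 12456298 to 13828610 in the UV-RIP input. The gene Gm26917 took 12.4% of the UMIs in fRIP IP replicate 5 and between 5.44% and 6.81% in the other fRIP IP libraries, and between 18.4% and 22.3% in the UV-RIP IP against 12.03% to 12.29% in its input. Only 2 libraries stood apart from their groups. The chi-square per degree of freedom was between 38.3 and 60.0 for fRIP IP replicate 5 against the other 3 and between 41.0 and 51.9 for fRIP input replicate 4, whereas no other pair of replicates in any group exceeded 13.5. Of 8 naive mESC markers, 7 were at 1 CPM (UMIs scaled to a library total of 1e6) or more in every group and summed to between 2075 and 4137 CPM per library, while Sox2 itself was listed at 0 in every library, so these counts do not check the target's RNA. Fibroblast or feeder markers summed to between 1.56 and 3.30 CPM and primitive endoderm markers to between 5.50 and 10.6 CPM. Markers of the cells in which members are best known were checked too. Megakaryocyte markers summed to between 3.23 and 8.13 CPM, nearly all from Itga2b, and Pf4, Gp9 and Ppbp had no UMI in any library. Myeloid or B cell markers summed to between 51.0 and 112 CPM, nearly all from Laptm5. Neuron markers summed to between 45.9 and 55.6 CPM in the fRIP IP against 26.3 to 35.6 CPM in its input, with Rbfox3 at 26.0 against 9.01 CPM and Map2 at 18.8 against 17.05 CPM. In UV-RIP the sums overlapped, between 51.3 and 69.9 CPM in the IP and between 52.9 and 63.6 CPM in the input, with Map2 lower in the IP, at 25.3 against 31.4 CPM. Tubb3 was at 0 in every group, and the part of these markers in the values of Nbea, a neuronal gene, was not tested.

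The family as a whole was well covered, with one exception. The 9 genes summed to 1273 ± 120 CPM (SD, n = 4) in the fRIP IP, 1037 ± 101 in its input and 1038 ± 60.8 in the UV-RIP IP. Wdfy3, the autophagy scaffold also called Alfy, supplied 29.7% of the family's UMIs in the UV-RIP input and 40.7% in the fRIP IP. Nbeal2 supplied 1.49% in the UV-RIP input, 1.92% in the fRIP input, 2.68% in the fRIP IP and 2.79% in the UV-RIP IP. Wdfy4, which dendritic cells need to present antigen taken up from other cells, was the scarcest member, with between 17 and 47 UMIs per library.

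The members are spread over 8 chromosomes of GRCm38, and each count covers the whole span. Nbeal1 (ENSMUSG00000073664.11) spans chr1:60180599-60338328 on the plus strand, and Wdfy3 (ENSMUSG00000043940.15) spans chr5:101832956-102069921 on the minus strand. Chromosome 3 holds both Nbea (ENSMUSG00000027799.12), on the minus strand from 55625195 to 56183701, and Lrba (ENSMUSG00000028080.16), on the plus strand from 86224680 to 86782692. Wdfy4 (ENSMUSG00000051506.17) spans chr14:32959547-33185508, minus strand, and Lyst (ENSMUSG00000019726.11) spans chr13:13590397-13778803, plus strand. On minus strands too are Nsmaf (ENSMUSG00000028245.15), at chr4:6396207-6454271, and Wdr81 (ENSMUSG00000045374.18), at chr11:75440944-75454717.

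Levels can be compared between genes only per length, and the counts cover whole gene bodies, introns included. Per kb of gene body in the UV-RIP input, Wdfy3 stood highest at 1.26 ± 0.0556 CPM (SD, n = 4), followed by Wdr81 at 1.11 ± 0.0937 and Nbeal1 at 1.01 ± 0.0459, and the ranges of the last pair overlapped. Nsmaf stood at 0.734 ± 0.0472 CPM, Nbeal2 at 0.509 ± 0.0195 and Lrba at 0.476 ± 0.0149, and Nbeal2 and Lrba did not separate beyond their spread. Lyst followed at 0.334 ± 0.0269, Nbea at 0.258 ± 0.0232 and Wdfy4 at 0.0113 ± 0.00202, each apart from its neighbour. In the fRIP input Wdr81 at 1.57 ± 0.169, Wdfy3 at 1.37 ± 0.180 and Nbeal1 at 1.18 ± 0.141 stood at the top, where Wdfy3 overlapped with each of the others but Wdr81 and Nbeal1 did not overlap, and Nbeal2 at 0.675 ± 0.0963 overlapped with Nsmaf. Nbeal2 ranked 5 of 9 in the UV-RIP input and 4 of 9 in its IP, and 4 of 9 in the fRIP input and 3 of 9 in its IP. These ranks rest on the length used. Per kb of exons Nbeal2 ranked 8 of 9 in both inputs and 7 of 9 in both IPs, since exons make up 32.5% of the Nbeal2 gene but only 3.46% of Lrba. In bulk libraries, fewer cells with an RNA and less RNA per cell cannot be told apart.

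**Figure D1:**
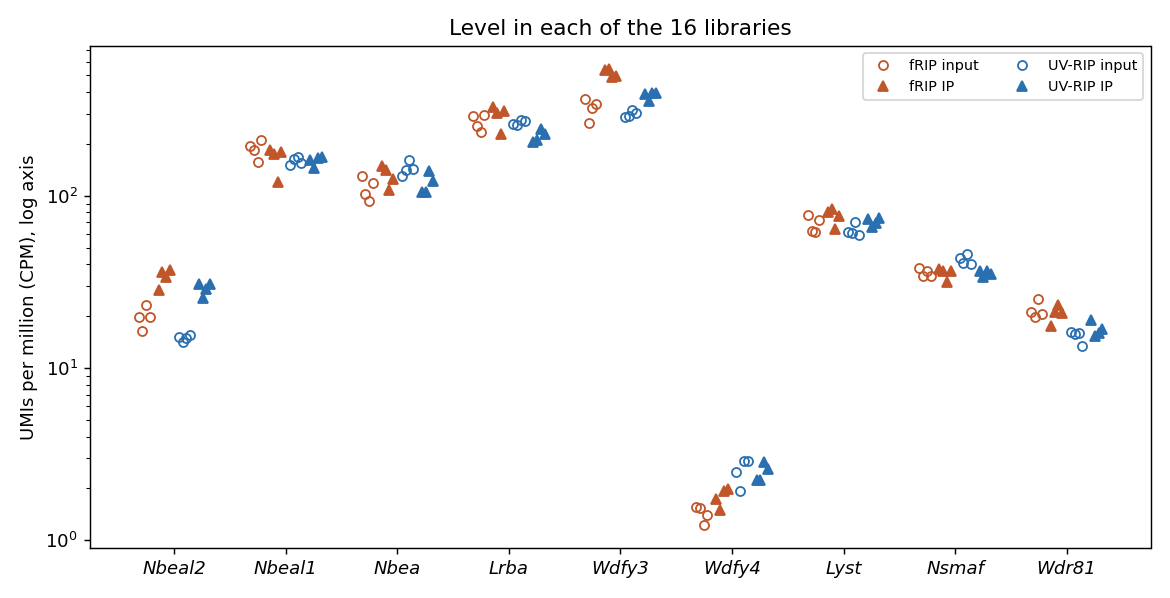
Level of each member in the 16 libraries, in CPM on a log axis, 1 symbol a library, with open circles for input and triangles for IP. The Nbeal2 triangles lie above its circles in both crosslinkers, Wdfy3 is highest throughout, and Wdfy4 stays between 1.23 and 2.89 CPM.

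Nbeal2 (ENSMUSG00000056724.14) spans chr9:110624789-110654161 in GRCm38 and is read from the minus strand, a gene of 29.4 kb that is, after Wdr81, the shortest of the family. In UV-RIP it had 30.8, 25.4, 28.6 and 30.9 CPM in the IP of replicates 3, 4, 5 and 6, and 15.1, 14.2, 14.99 and 15.5 CPM in the inputs of the same plates. The lowest IP was well above the highest input. These values rested on between 374 and 534 UMIs in the IP and between 177 and 215 in the input. The log2 ratio of IP to input was 1.03, 0.84, 0.93 and 0.99 in the 4 plates, and the fitted log2 fold change was 0.95 (SE 0.068), a fold of 1.93.

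UV-RIP placed Nbeal2 apart from all of its relatives. Of the 10208 genes averaging at least 100 UMIs per library, 5 had a larger UV-RIP log2 fold change than Nbeal2. Nbeal2 was the only member enriched by the rule used, a fold above 1.5 with an adjusted p below 0.05 in edgeR's quasi-likelihood test, and 0.68% of the 22936 genes tested were enriched in this way. No member was depleted, against 5.53% of genes. In each of the 4 plates the Nbeal2 ratio exceeded that of every relative, by 0.59 ± 0.026 on the log2 scale for Wdfy3 (SD, n = 4), the nearest, and by 1.24 ± 0.076 for Nbea, the farthest. The difference from Nbeal1, the closest protein, was 0.94 ± 0.051. These differences describe a gene chosen for its enrichment and are not tested.

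Wdfy3 was next in UV-RIP. It had 389, 354, 394 and 395 CPM in the IP and 285, 291, 314 and 304 CPM in the input, so every IP lay above every input, but the log2 fold change of 0.36 (SE 0.038, adjusted p = 1.67e-19, edgeR) stayed under the fold limit. In the edgeR fit over all 16 libraries its SE was 0.067 and its adjusted p 0.000143, so the size of the p-value depended on the fit. Lyst, the lysosomal trafficking regulator mutated in the beige mouse, had a log2 fold change of 0.17 (adjusted p = 0.00164) with IP values between 66.2 and 74.1 CPM that overlapped its inputs. This Lyst result was lost with DESeq2 on total UMIs (adjusted p = 0.0558) and in the edgeR fit over all 16 libraries (adjusted p = 0.0872). It was also lost without replicate 3 (adjusted p = 0.0513), without replicate 6 (adjusted p = 0.152) and with a trend on gene length removed (adjusted p = 0.668). With TMM factors Lyst was at 0.35 (adjusted p = 2.82e-13). Wdr81, which takes part in endosome maturation with Wdr91, was at 0.14 (adjusted p = 0.156).

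At the other end of the UV-RIP order stood Nbea, Lrba and Nsmaf. Nbea, which anchors protein kinase A and sorts receptors in neurons, had 105, 105, 139 and 123 CPM in the IP and 130, 141, 161 and 144 CPM in the input. Its IP was lower than its input in all 4 plates, although the groups overlapped, and its log2 fold change was -0.29 (SE 0.042, adjusted p = 3.59e-11). Lrba, which keeps CTLA4 away from lysosomes in T cells, had 206, 210, 245 and 229 CPM in the IP, all below its inputs of 259, 258, 275 and 271 CPM, with a log2 fold change of -0.26 (adjusted p = 4.48e-10). Nsmaf, an adaptor of the TNF receptor, was also lower in every IP than in any input, between 34.0 and 36.7 CPM against between 40.4 and 46.2 CPM, a log2 fold change of -0.26 (adjusted p = 7.33e-06). In the edgeR fit over all 16 libraries the adjusted p was much larger, at 0.000573 for Nbea, 0.000880 for Lrba and 0.00478 for Nsmaf. By adjusted p alone, 2 of the 8 relatives, Wdfy3 and the less stable Lyst, were thus higher in the IP, against 6.6% of all genes. Of the relatives 3 were lower, against 29%. This balance changed with the library scaling. Over all genes the median UV-RIP value was -0.17 with total UMIs as library size and 0.01 with TMM factors, and the 156 enriched and 1268 depleted genes became 505 and 425. With TMM factors Nbeal1 at 0.19 (adjusted p = 4.34e-06) and Wdr81 at 0.32 (adjusted p = 0.000139) also had adjusted p values under the limit, both higher in the IP. Nbea moved to -0.11 (adjusted p = 0.0150), Lrba to -0.08 (adjusted p = 0.0842) and Nsmaf to -0.08 (adjusted p = 0.282), so of these only Nbea stayed under the limit.

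Nbeal1 and Wdfy4 did not pass the test in UV-RIP with total UMIs as library size. Nbeal1 had 162, 146, 165 and 167 CPM in the IP and 152, 163, 167 and 155 CPM in the input, overlapping groups with a log2 fold change of 0.00 (SE 0.041, adjusted p = 0.964). Other processing moved this value. Nbeal1 was higher in the IP with TMM factors, as given above, at 0.16 (adjusted p = 4.99e-05) with library sizes without Gm26917 and Gm42418, and at 0.18 (adjusted p = 0.00445) with DESeq2's median-of-ratios, and lower, at -0.12 (adjusted p = 0.000530), with a trend on gene length removed. Wdfy4 was at -0.03 (SE 0.168, adjusted p = 0.926), a wide error at its depth. The median of the 9 members in UV-RIP was 0.00, and 5 of 9 lay above 0, compared with 32.8% of all genes. Both member values include Nbeal2, which was chosen for its enrichment.

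**Figure D2:**
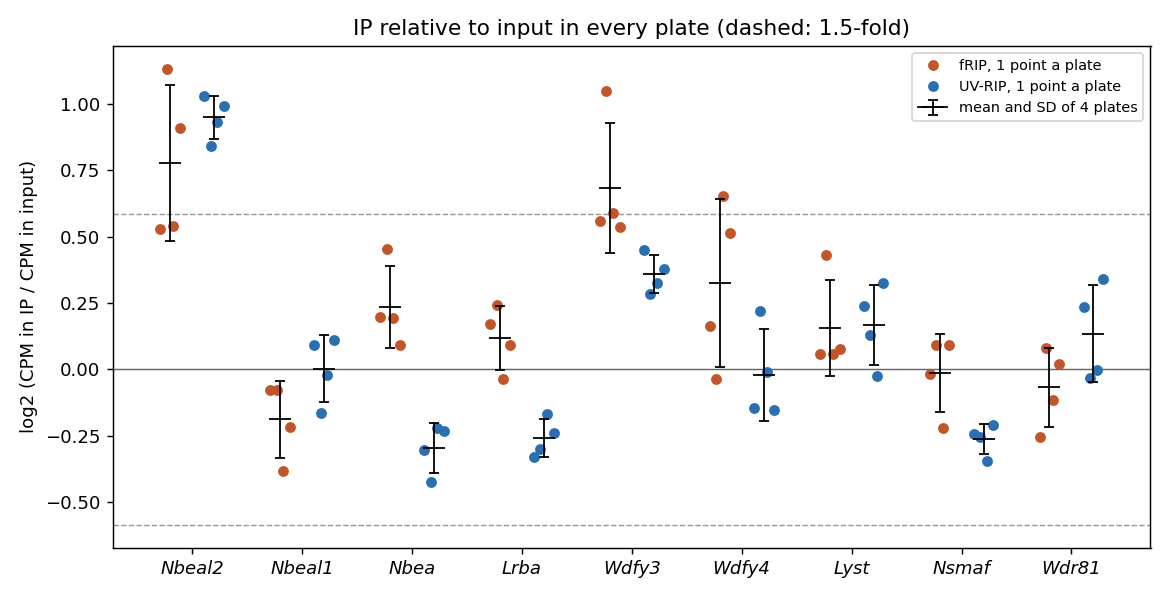
Log2 ratio of IP to input CPM for each member, 1 point a plate, with the mean and SD of 4 plates in black and dashed lines at 1.5-fold. UV-RIP points of Nbeal2 lie between 0.84 and 1.03, above all other members, whereas its fRIP points spread from 0.53 to 1.13 and overlap with those of Wdfy3.

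In fRIP, Nbeal2 and Wdfy3 were enriched together. Nbeal2 had 28.5, 36.0, 33.9 and 36.9 CPM in the IP of replicates 3 to 6 and 19.8, 16.5, 23.4 and 19.7 CPM in the input, groups that did not overlap. Its log2 ratio was 0.53, 1.13, 0.54 and 0.91 in the 4 plates, an SD of 0.29 compared with 0.082 in UV-RIP. The fitted log2 fold change was 0.77 (SE 0.10), a fold of 1.71, and 0.66 without replicate 4 and 0.86 without replicate 5, the plates of the libraries that stood apart. Wdfy3 had 537, 546, 488 and 494 CPM in the IP and 365, 265, 325 and 341 CPM in the input, with a log2 fold change of 0.68 (SE 0.083, adjusted p = 4.05e-07, edgeR), a fold of 1.60. Every Wdfy3 IP lay above every input, but the ratio of 1.05 in replicate 4 stood apart from those of the other plates, which lay between 0.54 and 0.59. Without replicate 4 the Wdfy3 log2 fold change was 0.56, under the fold limit, and the number of enriched members was 1 instead of 2.

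Of all genes 8.8% were enriched in fRIP, beside 2 members, of which Nbeal2 was chosen for its enrichment, and 10.7% were depleted, beside no member. When the fold of 1.5 was itself tested, 0 members were enriched in fRIP, against 3.18% of genes, and in UV-RIP Nbeal2 alone, against 0.0744%. By adjusted p alone Wdfy3 and Nbea were higher among the 8 relatives and none was lower, against 17.6% and 21.9% of genes. Nbea did not pass without the replicate block (adjusted p = 0.140), and it turned to the opposite direction with a trend on gene length removed, as given with gene length. Nbeal2 ranked 613 and Wdfy3 848 of the same 10208 genes by fRIP log2 fold change. Nbeal2 exceeded Wdfy3 in 2 of 4 plates, by 0.09 ± 0.19 on average on the log2 scale (SD, n = 4), so the order of this pair was within the spread. It exceeded Wdfy4 in 3 of 4 plates and the other 6 relatives in all 4, by between 0.54 for Nbea and 0.97 for Nbeal1.

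The remaining members were close to their inputs in fRIP. Nbea had 149, 141, 107 and 126 CPM in the IP and 130, 103, 93.8 and 118 CPM in the input, higher in the IP in all 4 plates with overlapping groups, and a log2 fold change of 0.23 (SE 0.079, adjusted p = 0.0199) that did not reach the fold limit. Lyst stood at 0.16 (adjusted p = 0.154), with a ratio of 0.43 in replicate 4 and between 0.06 and 0.08 in the other plates. Lrba was at 0.12 (adjusted p = 0.235), Nsmaf at -0.01 (adjusted p = 0.936) and Wdr81 at -0.07 (adjusted p = 0.633). Wdfy4 was at 0.32 with an SE of 0.23 (adjusted p = 0.3002). Nbeal1 was the lowest member at -0.19 (SE 0.077, adjusted p = 0.0581), below its input in all 4 plates, with 185, 176, 120 and 180 CPM in the IP and 195, 185, 157 and 209 CPM in the input. The median of the 9 was 0.16, that of all genes -0.03, and 6 of 9 members were above 0, compared with 48.1% of genes. Here too the member values include Nbeal2, chosen for its enrichment.

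**Figure D3:**
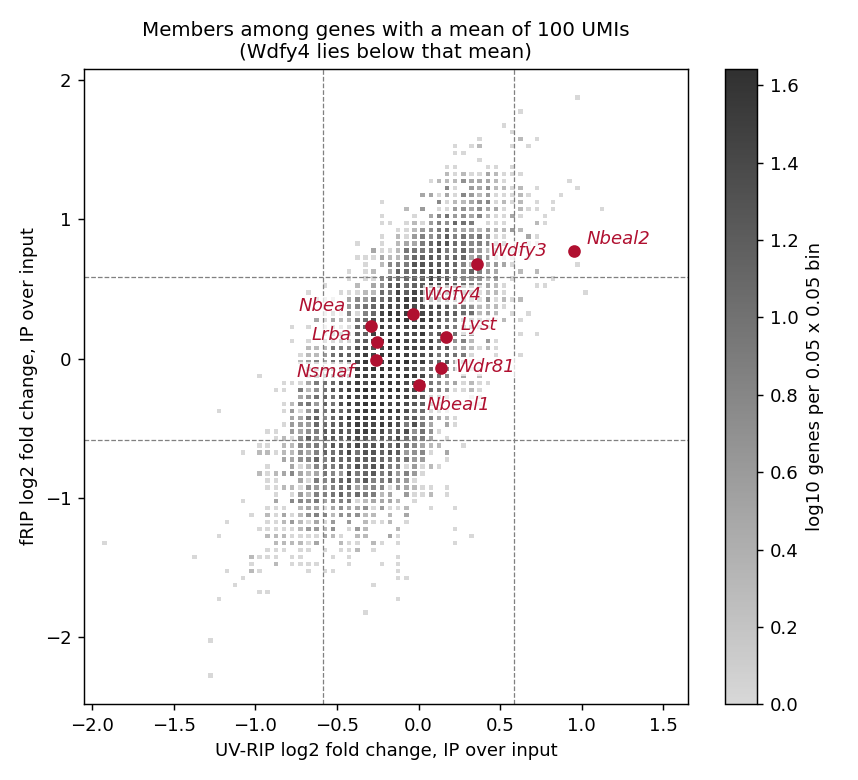
Log2 fold change of IP over input in UV-RIP (x axis) and fRIP (y axis) for the 9 members in red, over a grey map of 10197 genes averaging at least 100 UMIs, darker where more genes share a bin. Dashed lines mark 1.5-fold. Nbeal2 lies beyond both upper lines, Wdfy3 beyond the fRIP line only, and the other members lie within the dense middle.

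The enrichment of 3 members differed between the crosslinkers. An interaction term over all 16 libraries tested, for each gene, whether the log2 enrichment differed between fRIP and UV-RIP, and it uses the same libraries as the comparisons above. It passed an adjusted p of 0.05 in 3 members, all higher in fRIP, where 18.6% of genes passed, and in none higher in UV-RIP, where 8.07% of genes passed. Nbea had the largest difference, 0.53 (SE 0.088, adjusted p = 4.96e-05, edgeR), with ratios above 0 in all 4 fRIP plates and below 0 in all 4 UV-RIP plates. Lrba differed by 0.38 (SE 0.080, adjusted p = 0.000741), with its 4 fRIP ratios, from -0.03 to 0.24, all above its 4 UV-RIP ratios, from -0.33 to -0.17. Wdfy3 differed by 0.32 (SE 0.095, adjusted p = 0.0112), a call that was lost with TMM factors, where the difference was 0.20 (adjusted p = 0.0830). Without replicate 4 the Wdfy3 difference fell to 0.18 but still passed (adjusted p = 0.0200). Nsmaf differed by 0.25 (adjusted p = 0.0616) and Wdfy4 by 0.35 with an SE of 0.26 (adjusted p = 0.381). Lyst was at -0.01 (adjusted p = 0.966).

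Nbeal2, Nbeal1 and Wdr81 had the opposite sign, with larger values in UV-RIP. The difference was -0.18 (SE 0.13) for Nbeal2, given as a description, -0.19 (SE 0.088, adjusted p = 0.118) for Nbeal1 and -0.20 (SE 0.12, adjusted p = 0.248) for Wdr81. Neither Nbeal1 nor Wdr81 passed the test, which does not show that they were the same in both crosslinkers. Without replicate 4 Nbeal2 was at -0.33, and Nbeal1 at -0.28 (adjusted p = 0.000277) and Wdr81 at -0.31 (adjusted p = 0.0369) passed, beside the 3 members higher in fRIP, where 17.7% of genes passed as higher in fRIP and 8.40% as higher in UV-RIP. Other fits that left out a replicate gave smaller differences, down to -0.07 for Nbeal2, -0.14 for Nbeal1 and -0.11 for Wdr81. With TMM factors Nbeal1 at -0.31 (adjusted p = 0.00433) and Wdr81 at -0.32 (adjusted p = 0.0436) passed. The member median was 0.25, above the median of 0.15 over all genes. TMM factors changed the 4264 genes higher in fRIP and 1852 higher in UV-RIP to 3062 and 2810.

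The inputs were compared to see whether the starting RNA of the members differed between the crosslinked lysates. Nbeal2 was higher in the fRIP input, at 19.8 ± 2.83 CPM, than in the UV-RIP input, at 14.95 ± 0.573 CPM (SD, n = 4 each), a log2 difference of 0.41 (adjusted p = 0.00706, edgeR) below the fold limit, and the ranges did not overlap. Wdr81 differed by 0.50 (adjusted p = 0.00110) and Nbeal1 by 0.23 (adjusted p = 0.0383) in the same direction. Nbea at -0.38 (adjusted p = 0.00541) and Nsmaf at -0.25 (adjusted p = 0.0211) were higher in the UV-RIP input. Over fits that left out a replicate Nbea ran from -0.50 to -0.24 and Nsmaf from -0.28 to -0.22. Nbea changed sign with a trend on gene length removed. Wdfy4 was the only member past both limits, at 1.43 ± 0.155 CPM in the fRIP input and 2.54 ± 0.456 CPM in the UV-RIP input, a log2 difference of -0.83 (SE 0.21, adjusted p = 0.00484) that rested on between 17 and 40 UMIs per library and was lost without replicate 5, at -0.70 (adjusted p = 0.0521), and with a trend on gene length removed. Of all genes, 9.44% were higher in the UV-RIP input and 10.6% in the fRIP input by this rule. Lrba, Wdfy3 and Lyst differed by between 0.01 and 0.12.

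Gene length and base composition moved with these values, and their part in them was examined only by removing a smooth trend in each library. The members run from 13.8 kb for Wdr81 to 558.5 kb for Nbea and 558.0 kb for Lrba, with Nsmaf at 58.1 kb, Nbeal1 at 157.7 kb, Lyst at 188.4 kb, Wdfy4 at 226.0 kb and Wdfy3 at 237.0 kb. Across the 9 members the difference between crosslinkers followed log10 gene length with a Pearson r of 0.75 and a Spearman rho of 0.90, and the percent of the gene that is exon with an r of -0.78 and a rho of -0.92. The points share libraries and are not replicates. Across 10200 genes averaging at least 100 UMIs, r was 0.62 for the same pair of measures. With the length trend removed, the difference was 0.02 for Nbea (adjusted p = 0.915), -0.14 for Lrba (adjusted p = 0.102) and -0.12 for Wdfy3 (adjusted p = 0.203), so these 3 calls were lost. Nbeal1 at -0.59 (adjusted p = 1.03e-06) and Lyst at -0.43 (adjusted p = 0.000491) passed instead, both higher in UV-RIP, where 10.6% of genes passed as higher in fRIP and 8.53% as higher in UV-RIP. Between the inputs the same step ended the call of Wdfy4, at -0.40 (adjusted p = 0.156), while Nbeal1 at 0.59 (adjusted p = 7.73e-06) and Lrba at 0.60 (adjusted p = 1.25e-06) were higher in the fRIP input. Of all genes 10.9% were called higher in the fRIP input with this step. The fRIP log2 fold change of Wdfy3 was 0.09 (adjusted p = 0.188) after the same step, while Nbeal2, a short gene, stayed at 0.65 in fRIP and 0.93 in UV-RIP. Nbeal1 became depleted in fRIP at -0.71 (adjusted p = 7.87e-08), beside 10.6% of genes. Nbea, Lrba and Lyst, above their inputs before this step, changed direction in fRIP, with Nbea at -0.42 (adjusted p = 1.49e-05), Lrba at -0.54 (adjusted p = 4.62e-07) and Lyst at -0.40 (adjusted p = 6.08e-05), and Nsmaf was at -0.29 (adjusted p = 0.00443).

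Coding GC content separated Nbeal2 from its closest protein relative. It was 59.5% in Nbeal2, 59.3% in Wdr81, 54.6% in Wdfy4, 53.7% in Wdfy3, between 45.6% and 46.9% in Lyst, Nsmaf, Nbea and Lrba, and 40.5% in Nbeal1. Across the members the UV-RIP log2 fold change had an r of 0.62 and a rho of 0.40 with coding GC, and 0.41 and 0.14 over the 8 without Nbeal2. Wdr81, with nearly the GC content of Nbeal2, was at 0.14 in UV-RIP and at -0.07 in fRIP, under the fold limit in both. With TMM factors it was at 0.32 in UV-RIP (adjusted p = 0.000139, edgeR). Across 10200 genes the r between UV-RIP log2 fold change and GC of the longest transcript was 0.54. With that trend removed Nbeal2 was at 0.72 in UV-RIP and still enriched, Nbeal1 rose from 0.00 to 0.33 (adjusted p = 9.52e-16), and Wdfy3 was at 0.30, so Nbeal1 and Nbeal2 lay nearer to each other. In fRIP the same step put Nbeal2 at 0.56, under the fold limit, and Nbeal1 at 0.14 (adjusted p = 0.122). In protein sequence Nbeal1 was 48.7% identical to Nbeal2 and the other relatives between 21.0% for Lyst and 29.9% for Nsmaf. Over the 8 relatives, identity had an r of -0.59 and a rho of -0.69 with the fRIP log2 fold change, -0.19 and -0.62 with that of UV-RIP, and -0.42 and -0.02 with the difference between crosslinkers.

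**Figure D4:**
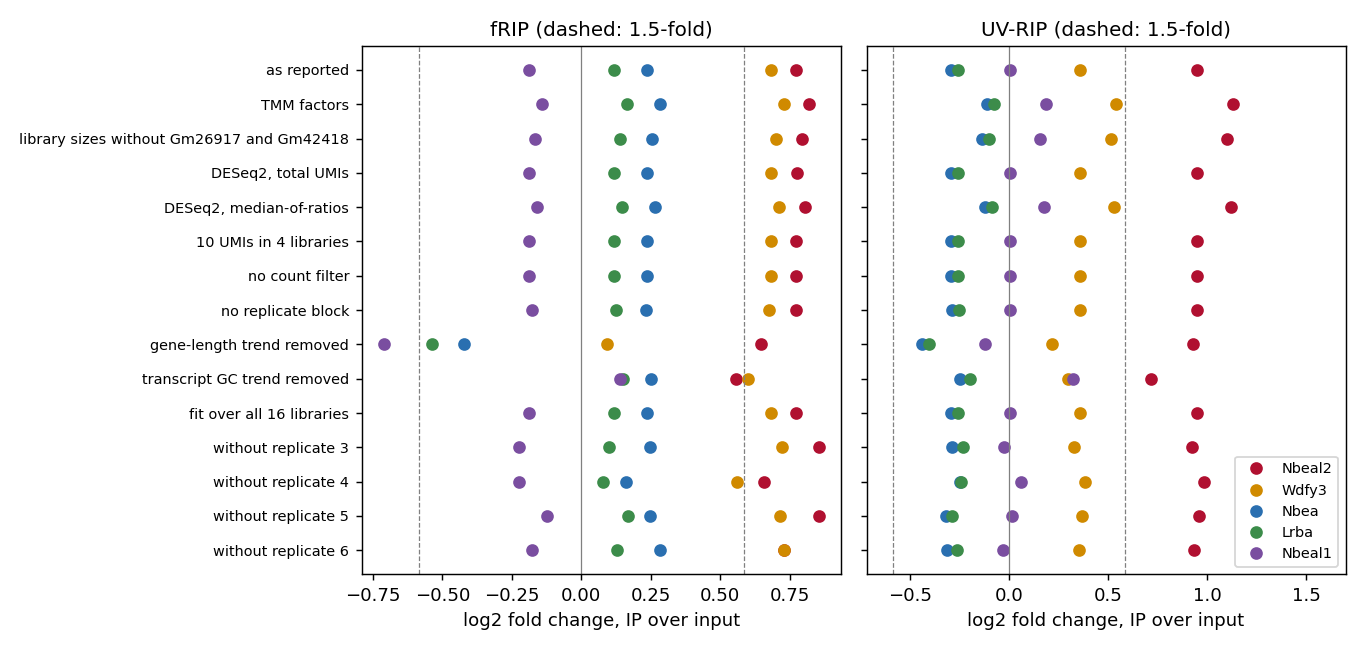
Log2 fold change of 5 members under each alternative, fRIP on the left and UV-RIP on the right, 1 row a setting, with dashed lines at 1.5-fold. Nbeal2 lies beyond the upper line in every row of UV-RIP, from 0.72 to 1.13, and in fRIP in every row but the one with the GC trend removed, at 0.56.

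**Figure D5:**
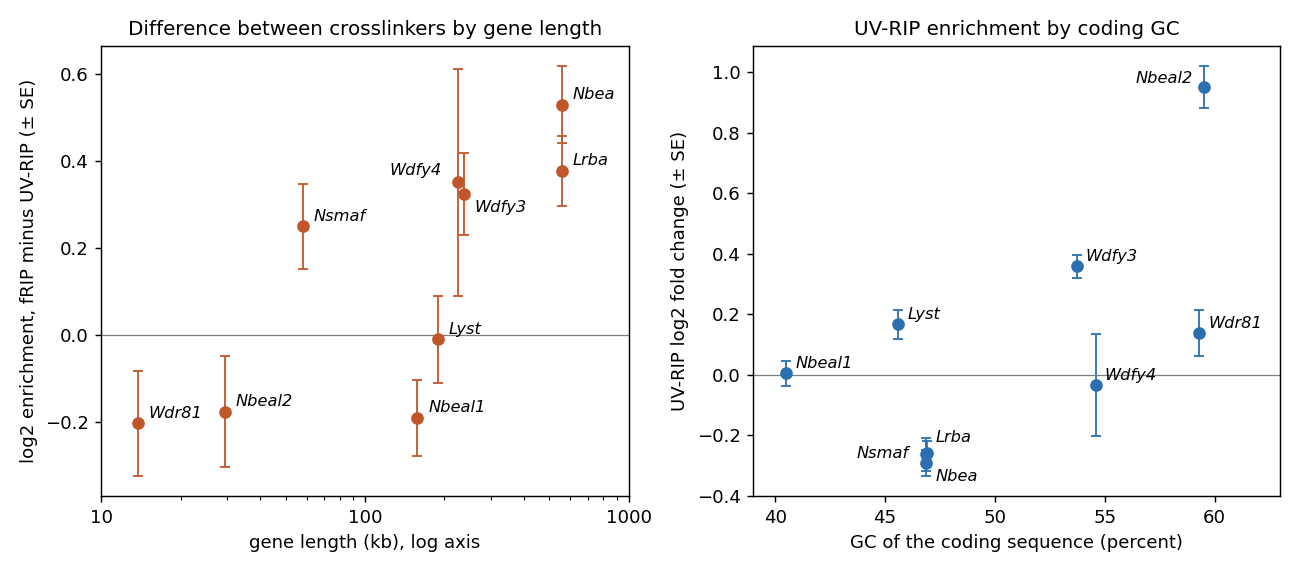
Left, log2 enrichment in fRIP minus UV-RIP with its SE for each member against gene length on a log axis. Right, UV-RIP log2 fold change with its SE against the GC percent of the coding sequence. The 2 longest genes, Nbea and Lrba, have the largest differences of the well-covered members. On the right Nbeal2 lies at 59.5% GC and 0.95, Wdr81 at 59.3% and 0.14, and Nbeal1, lowest in GC, at 40.5% and 0.00.

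The genes whose ratios were most like those of Nbeal2 were looked for outside the family. Likeness was the Euclidean distance between log2 ratios of IP to input in 8 plates, computed with 1 CPM added. It was taken over 10200 genes, members left out, whose median distance was 2.80. The 5 nearest were Lrp1 at 0.475, Lama5 at 0.582, Celsr3 at 0.607, Abca7 at 0.618 and Piezo1 at 0.625. Lrp1 is an endocytic receptor of the LDL receptor family, Lama5 a laminin chain, Celsr3 a cadherin with an adhesion receptor tail, Abca7 a lipid transporter and Piezo1 a mechanically gated channel. Their log2 fold changes ran from 0.60 to 0.84 in fRIP and from 0.66 to 0.99 in UV-RIP, their transcripts had between 57.8% and 59.9% GC, and their genes were between 19.1 and 83.0 kb long. Among members Wdfy3 was nearest to Nbeal2 at 1.15, with 115 genes closer, and Lyst next at 1.93. Nbeal1 was at 2.64, with 43.3% of genes closer to Nbeal2 than it was.

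Genes that overlap or adjoin members were read for shared signal. Mir8107 is the only annotated gene inside Nbeal2 and had no UMI. Of the genes next to Nbeal2, both named after their values were seen, Ccdc12 on the opposite strand was enriched in fRIP, at 0.78 (adjusted p = 4.87e-08), but was at -0.06 in UV-RIP (adjusted p = 0.456). Nradd was depleted in fRIP at -0.76 (adjusted p = 0.000115) and at -0.12 in UV-RIP (adjusted p = 0.584). Sdcbp overlaps Nsmaf by 12217 bases on the opposite strand and held 53.5% as many UMIs as Nsmaf. It was at -0.32 in UV-RIP (adjusted p = 3.81e-05), close to Nsmaf at -0.26, and at -0.48 in fRIP (adjusted p = 0.000200), where Nsmaf was at -0.01. Lrrc18 lies within Wdfy4 on the opposite strand with 48.1% as many. The antisense gene Gm37876 in Lrba had 2.07% of the UMIs of Lrba and was enriched in fRIP at 1.06 (adjusted p = 1.27e-06), and Gm20548 in Wdfy3 had 0.226% and was enriched at 1.25 (adjusted p = 0.00560). The strand setting of the counting is not given in the sources used here, so reads of these pairs may not be fully separated.

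Genes that work with the members were read in 3 lists, against 8.8% of all genes enriched and 10.7% depleted in fRIP, 0.68% and 5.53% in UV-RIP, and medians over all genes of -0.03 and -0.17. Of 20 selective autophagy genes tested, the setting in which Wdfy3 acts, 1 was enriched and 5 were depleted in fRIP, and none passed in UV-RIP, with medians of -0.06 and -0.16. Atg7, the activating enzyme of the conjugation system, rose by 0.68 on the log2 scale in fRIP (adjusted p = 9.27e-07), and the ubiquitin-like Gabarap fell by 0.96 (adjusted p = 2.60e-08). Of 24 genes of lysosome-related organelles, the setting of Lyst and Nbeal2, none was enriched and 3 were depleted in fRIP, with a median of -0.07, and in UV-RIP only Bloc1s2 was depleted, at -0.72 (adjusted p = 1.07e-11), with a median of -0.10. Of 15 binding partners of members, 2 were enriched and 3 depleted in fRIP and none passed in UV-RIP, with medians of -0.19 and 0.09. Vac14, a scaffold of phosphoinositide metabolism, was enriched in fRIP at 0.83 (adjusted p = 2.37e-08), and Rack1, a ribosome-bound scaffold with WD40 repeats, was depleted at -0.90 (adjusted p = 8.00e-08).

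Other genes of very large proteins made up the last list. Of 18 tested, 15 were above 0 in fRIP and 14 in UV-RIP, where 48.1% and 32.8% of all genes were. The medians were 0.26 and 0.25, both higher than the member medians of 0.16 and 0.00, which include Nbeal2. Only Vps13d was enriched in fRIP, at 0.65 (adjusted p = 5.00e-07), and only the ubiquitin ligase Herc2 in UV-RIP, at 0.62 (adjusted p = 1.31e-53), beside the shares of all genes given for the other lists. None of the 18 reached the UV-RIP log2 fold change of Nbeal2. The list was chosen by hand with earlier results of these data known, and its counts describe it without a test.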

How the data were processed

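RNA from Sox2 IP and input of mESC was measured in 16 libraries. The authors mapped reads with STAR to mm10, kept uniquely mapped reads, and deposited UMI counts that cover each gene of GENCODE vM16 from end to end, with no normalization. Versions and the strand setting are not given in the sources used here. All 16 count columns were matched to a library. IP and input of one number come from one lysate by the methods.

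Counts were tested in R 4.3.3 with edgeR 4.0.16 (quasi-likelihood, total UMIs as library size, Benjamini-Hochberg adjustment) over the 22936 genes that reached 3 UMIs in some library. IP was compared with input with the replicate number as a block. The interaction used the plate as a block, and the inputs no block. Calls needed a fold above 1.5 and an adjusted p below 0.05, or the adjusted p alone for the interaction. CPM scales UMIs to a library total of 1e6. Deviations of IP and input libraries of one number from their groups had an r from 0.11 to 0.61 for fRIP and from 0.030 to 0.45 for UV-RIP. Some plates thus showed little joint deviation. No pair of replicates came closer than a chi-square of 1.52 times its degrees of freedom, so none was treated as a copy. The plates were separate cultures.

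Members, gene lists and marker lists were chosen with earlier results of these data known. All members were named, with genes overlapping them, the 5 genes nearest to Nbeal2, and in each list only genes among the 2 largest changes in each direction in fRIP, apart from Herc2, which was named after its UV-RIP value was seen. Coordinates are from GENCODE vM21 on GRCm38. Nbeal2 and Lyst matched by identifier without its version, and their spans equal the length in the deposited table. Coding windows were aligned with MAFFT 7.526. Alternatives were other library sizes, DESeq2 1.42.0, other count filters and thresholds, fits with and without the block or over all 16 libraries, each replicate left out, and removal of a trend on gene length. Removal of a trend on transcript GC content was chosen after the files had been examined. Tested on simulated counts of 22936 genes with 200 genes changed by a fold of 2, the scripts recovered 100% of them in fRIP, in UV-RIP and between the inputs, and 99% for the interaction. False calls made up 7.83% of calls in fRIP, 6.1% in UV-RIP, 4.81% for the interaction and 4.31% between the inputs. The shares in fRIP and UV-RIP were thus above the rate set by the adjusted p limit. Only a fold of 2 was simulated, so recovery of smaller changes was not tested. Recovery on simulated counts does not show how many changes are missed in the real libraries. Wdfy4 had under 50 UMIs in each library, which limits its precision, while replicates differed by more than counting error.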

Additional observations from a re-analysis of the deposited data

Results flagged for a closer look

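Among 54 sets of 4 values, a CPM or a log2 ratio of one member in one group, 5 had a highest or lowest value far from the other 3, where chance gives about 1 in 20. Nbeal1 had 120.4 CPM in fRIP IP replicate 5 and between 176 and 185 CPM in the other replicates. Gm26917 took 12.4% of the UMIs of that library, and its part in the value was not tested. The log2 ratio of IP to input in fRIP replicate 4 was 1.046 for Wdfy3, with between 0.54 and 0.59 in the other plates, and 0.4289 for Lyst, with between 0.06 and 0.08. For both genes the IP of this plate was the highest of the fRIP IPs, at 546 CPM for Wdfy3 and 83.8 CPM for Lyst. Its input was the lowest for Wdfy3, at 265 CPM, but not for Lyst, at 62.3 CPM against 61.9 CPM in replicate 5. That input library stood apart from its group over all genes, and its part in the ratios was not tested. Wdfy3 had 354.3 CPM in UV-RIP IP replicate 4 and between 389 and 395 CPM in the other replicates. Wdr81 had 13.38 CPM in UV-RIP input replicate 6 and between 15.7 and 16.1 CPM in the others.

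The log2 enrichment differed between the crosslinkers, by the edgeR interaction test, in 3 members, each larger in fRIP. The difference was 0.529 for Nbea, 0.3772 for Lrba and 0.3229 for Wdfy3. All 3 are among the 4 members longer than 200 kb, and the difference moved with gene length over the members.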

How the results depend on the processing

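The number of enriched members in fRIP was 1 instead of 2 with either the gene-length or the transcript GC trend removed and 0 when the fold of 1.5 was itself tested, and it ran from 1 to 2 over fits that left out a replicate. With the length trend removed, 1 member was depleted in fRIP, and 2 instead of 1 differed between the inputs, Nbeal1 and Lrba in place of Wdfy4. Of all genes 5.86% were then enriched and 10.6% depleted in fRIP, and 10.9% were higher in the fRIP input and 7.64% in the UV-RIP input. With the GC trend removed, 7.73% of genes were enriched in fRIP. With no fold threshold, 3 members, Nbeal2 included, were higher and 3 lower in UV-RIP. Leaving out replicates gave from 3 to 6 members for the interaction (6 without replicate 4) and from 0 to 1 for the inputs (0 without replicate 5). The rank of Nbeal2 by level was 7 in both IPs and 8 in both inputs per kb of exon, instead of 3, 4, 4 and 5. Fits without the replicate block kept the counts, 2 in fRIP, 1 in UV-RIP and 3 for the interaction, and the inputs with a block gave 1. The block changed no member's call by fold and adjusted p. By adjusted p alone, Nbea in fRIP was lost without the block (adjusted p = 0.140) and Nbeal1 between the inputs with one (adjusted p = 0.0565, against 0.0383). Same-numbered inputs of different crosslinkers had correlations between -0.28 and -0.068, so their numbers pair nothing.

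Some log2 differences changed sign. With the length trend removed, fRIP gave -0.42 for Nbea (adjusted p = 1.49e-05), -0.54 for Lrba (adjusted p = 4.62e-07), -0.40 for Lyst (adjusted p = 6.08e-05) and -0.26 for Wdfy4, UV-RIP -0.12 for Nbeal1, the interaction -0.14 for Lrba, -0.12 for Wdfy3 and -0.0785 for Wdfy4, and the inputs 0.21 for Nbea. With the GC trend removed, fRIP gave 0.14 for Nbeal1 and 0.0759 for Nsmaf, and UV-RIP -0.0863 for Wdr81. With TMM factors, library sizes without Gm26917 and Gm42418, and DESeq2 median-of-ratios in turn, Nsmaf in fRIP was 0.034, 0.0068 and 0.0166, Wdfy4 in UV-RIP 0.14, 0.11 and 0.15, and Lrba between inputs -0.0102, -0.0874 and -0.0046. Leaving out replicates gave a range of -0.0483 to 0.0559 for Nsmaf in fRIP, -0.0319 to 0.0591 for Nbeal1 and -0.10 to 0.0129 for Wdfy4 in UV-RIP, -0.11 to 0.0682 for Lyst in the interaction and -0.0382 to 0.0876 for Lrba between inputs. For single members, 434 alternative values kept direction and call, 29 changed sign, and of the others 14 gained a call and 9 lost one. Among those that changed sign, the interaction calls of Lrba and Wdfy3 were also lost with the length trend removed. The causes were not tested beyond the trends removed. The planned removal of a trend on GC content of the gene body was not run.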
